A study of Sus scrofa with 9 samples.

Results

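Autophagy machinery genes encode the proteins with which a cell encloses part of its own contents in a double membrane and delivers it to the lysosome. They were described here by their level of 5-hydroxymethylcytosine (5hmC), an oxidized form of methylated cytosine, over exons. The members were chosen by name, as 40 genes that act from the start of autophagosome formation to the capture of cargo, and the rule used no threshold on a measured value, although earlier results of these data were known when it was written. Of these 40 genes, 38 were found in both deposited tables, which held 18933 and 18992 genes. MAP1LC3A was found only in the second table and VMP1 matched no gene symbol, so VMP1 was not analysed here. The cells were mesenchymal stem/stromal cells (MSCs) from the subcutaneous abdominal fat of female domestic pigs, which entered the diets at 3 months of age. Lean-MSCs came from pigs on standard chow and Obese-MSCs from pigs on a high-fat and high-fructose diet, both for 16 weeks. Obese-MSCs were further passaged and either left untreated or cultured with vitamin-C, which the 5hmC-forming TET enzymes use as a cofactor, at 50 µg/mL for 48 h. The untreated ones were also the Obese group compared with Lean-MSCs. The paper does not give the passage of the Lean-MSC libraries by themselves. Any difference in passage between these groups could not be told apart from diet. Each of the 3 groups had 3 libraries, made by hMeDIP-seq, an assay that pulls down 5hmC-bearing DNA fragments with an antibody for sequencing. Cells expanded in culture served as the model in all groups, and no Lean-MSCs were treated with vitamin-C.

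Autophagosome formation is set in motion by the ULK1 kinase complex, which acts with a class III PI3-kinase complex that marks the site of the new membrane. ATG9 vesicles and ATG2 supply lipid to this membrane, and conjugation systems built around ATG12 and the ATG8 family attach LC3 and GABARAP proteins to it. Cargo receptors such as SQSTM1 bind these proteins and the material to be degraded, and the finished vesicle then fuses with the lysosome. Autophagy is known as a route by which stromal cells renew organelles and withstand stress. The mark measured here lies on DNA, and neither the expression of these genes nor the rate of autophagy was measured in it.

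The values were normalized counts, that is, reads over all exons of a gene after the authors' normalization, and they are relative within a table. The libraries summed to between 494566 and 522269 normalized counts in the Obese and Lean table, and to between 547242 and 593846 in the table of treated and untreated Obese-MSCs. The same untreated Obese libraries stood in both tables, where their values differed by a median factor of 1.10 to 1.13, so that groups were compared only within a table and the comparisons are not independent of each other. The depth in reads was not known from these values, and errors given here come from the spread of 3 libraries alone. The labels do not say that each library came from a separate animal, and p-values here measure the spread between libraries. Genes whose group means were at or under 3 normalized counts were treated as low. The MSC surface markers NT5E, THY1 and ENG had between 12.4 and 67.4 normalized counts in the Obese and Lean libraries. Among blood cell markers, PTPRC had 35.9 to 68.5, CD34 13.4 to 23.8 and CD14 0 to 4.49. Among endothelial markers, PECAM1 had 99.8 to 149.9, VWF 20.7 to 42.0 and CDH5 5.87 to 16.4. Among adipocyte markers, ADIPOQ had 82.2 to 110.6, and PLIN1, FABP4 and LEP had 1.84 to 17.8. These values are of DNA and do not check the labelled cell type, and the part of other cell types in the results was not tested.

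In Obese-MSCs versus Lean-MSCs, a single member, ATG4A, met the study's criteria for high 5hmC. These criteria are an unadjusted p of 0.05 or less in a two-sided test with equal variances, together with group means whose ratio is 1.4 or more for high or 0.7 or less for low 5hmC. One of 38 members was called high, where 2.07% of all genes were, and 0 of 38 were called low, where 2.43% of all genes were. Groups did not overlap in 6 members. WIPI2, ATG7, ATG16L2 and ATG4A were higher in every Obese library than in every Lean library, against 5.7% of all genes, and ATG10 and ATG4C were lower, against 6.06%. Over the 31 members with both means above 3, the median log2 ratio of means was 0.13, with a range of -0.59 to 0.78, and 21 ratios were above 1 and 10 below. Over all 15177 genes with such means the median was 0.01, with 7709 ratios above 1 and 7468 below.

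With limma on log2(normalized count + 1), which shares the spread over genes, 31 members were tested and 0 passed an adjusted p of 0.05. Of all 15146 genes tested 0% passed it, and the smallest adjusted p of a member was 0.703. At an unadjusted p of 0.05, 1 member was higher and 0 were lower in Obese-MSCs, where 3.2% of all genes tested were higher and 3.61% lower. The 95% interval of a member's log2 difference had a median half-width of 0.61. Of the 31 intervals, 21 lay wholly within a 2-fold difference of normalized count + 1 in either direction. For the other members tested, the interval reached such a 2-fold difference. In members with few normalized counts, the same interval allows a larger fold difference of the count itself.

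**Figure D1:**
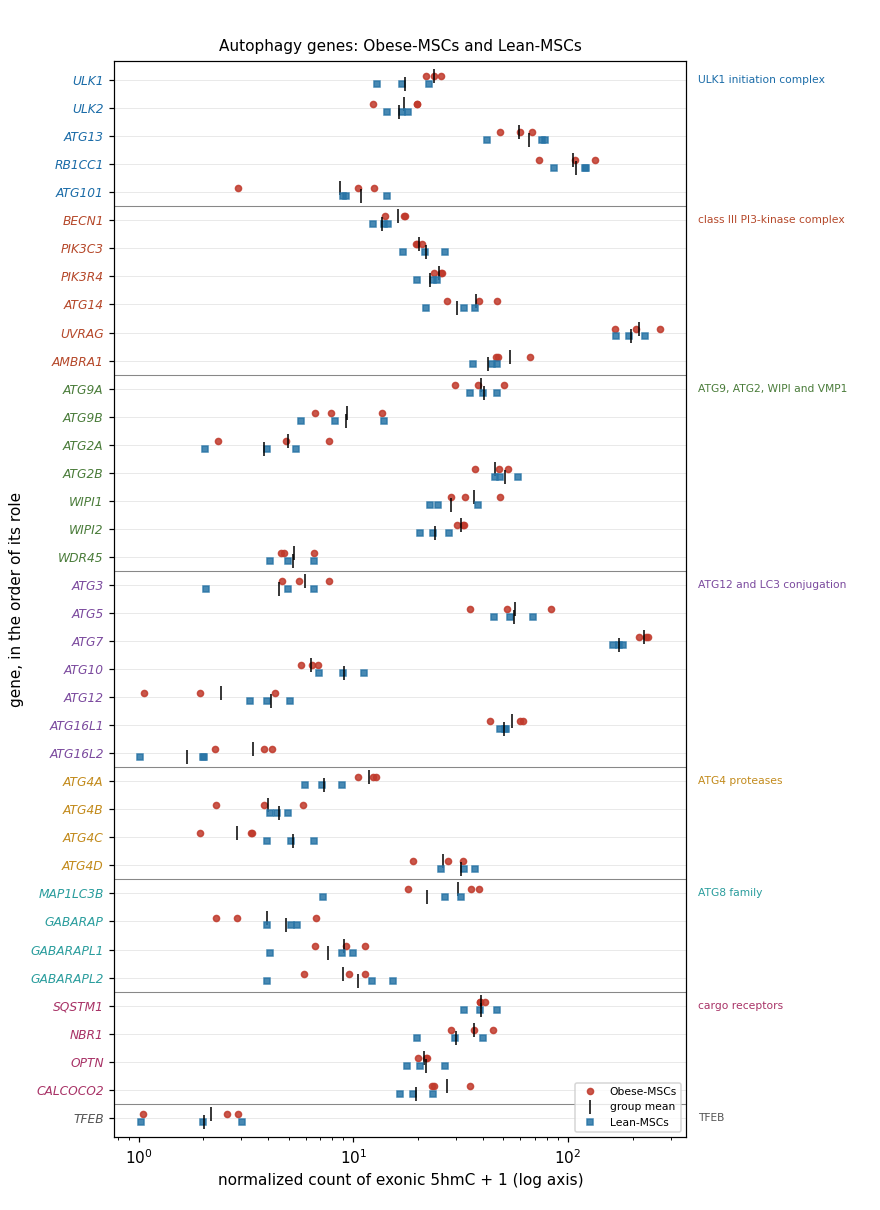
Normalized counts of exonic 5hmC plus 1 (horizontal log axis) of the 38 members in the 3 Obese-MSC libraries (circles) and the 3 Lean-MSC libraries (squares), ordered by role, with group means as bars. The groups overlap in all members except WIPI2, ATG7, ATG16L2 and ATG4A, which were higher in Obese-MSCs, and ATG10 and ATG4C, which were lower.

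In Obese-MSCs treated with vitamin-C versus untreated ones, ATG10 met the criteria for high 5hmC and PIK3R4 those for low 5hmC. These were 1 of 38 members called high, where 1.11% of all genes were, and 1 of 38 called low, where 0.806% were. They were also the members in both tables whose groups did not overlap, 1 higher and 1 lower, where groups of all genes did not overlap in 3.24% with higher and 2.67% with lower values after treatment. Over the 34 members with both means above 3, the median log2 ratio of means was 0.04, with a range of -0.70 to 0.61, and 19 ratios were above 1 and 15 below. The median over all genes was 0.00. Over all 38 members it was 0.061, and it turned below 0 without untreated replicate 3 (-0.029) and without treated replicate 6 (-0.009). With limma, 0 of 32 members tested passed an adjusted p of 0.05, as did 0% of all 15194 genes tested. At an unadjusted p of 0.05, 0 members were higher and 0 lower, where 0.559% of all genes tested were higher and 0.415% lower. The labels do not match treated with untreated libraries, and the fit was unpaired. The paper describes Obese-MSCs cultured for a further passage without or with vitamin-C, so the groups may share animals. If so, the unpaired intervals and the permutation p-values given here leave that pairing out. Treated and untreated libraries can be matched as blocks in limma in 6 ways. Of these, 1 gave PIK3R4 an unadjusted p under 0.05, and 5 gave no member one. The 1 way matched treated 4, 5 and 6 with untreated 1, 2 and 3. Deviations from the group mean correlated across genes at 0.26, 0.34 and 0.15 in these pairs, and at -0.22 to -0.03 in the others. Over the 32 members they correlated at 0.26, 0.30 and 0.08 in these pairs, and at -0.39 to 0.10 in the others. Because each group was centred on its own mean, a library's values with the other group offset one another. The negative values are therefore not a separate contrast, and shared animals were not tested. The intervals of the unpaired fit had a median half-width of 0.66 on the log2 scale. Of the 32, 22 lay wholly within a 2-fold difference of normalized count + 1.

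**Figure D2:**
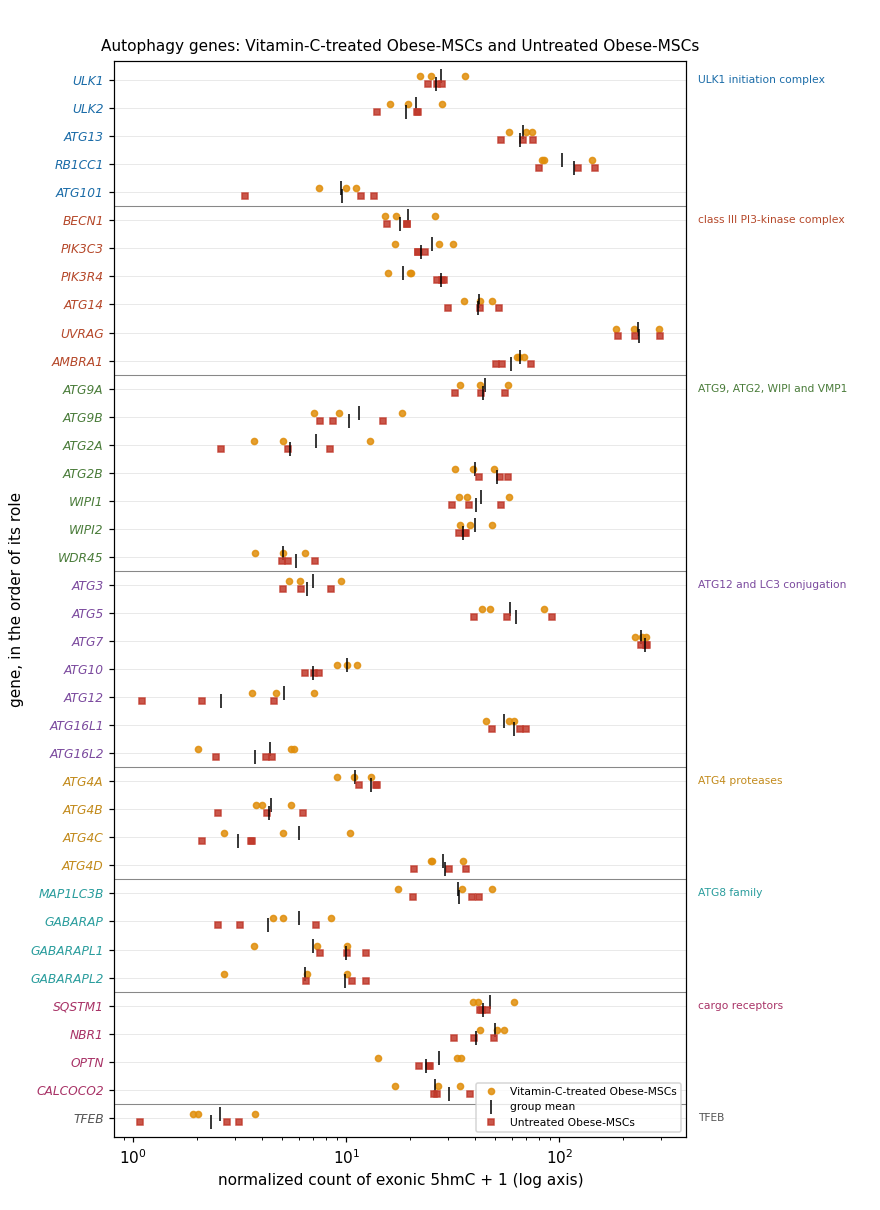
Normalized counts of exonic 5hmC plus 1 (horizontal log axis) of the 38 members in the 3 vitamin-C-treated (circles) and the 3 untreated (squares) Obese-MSC libraries, ordered by role, with group means as bars. ATG10 lay higher and PIK3R4 lower in every treated library, and all the other members overlapped.

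ATG4A is one of the cysteine proteases that trim ATG8 family proteins before their attachment to membranes and release them afterwards. In Sscrofa11.1 it lies on chromosome X, from 88545924 to 88633328, and its span overlaps PSMD10. The Obese libraries had 11.7, 11.4 and 9.52 normalized counts of ATG4A and the Lean libraries 7.84, 4.96 and 6.17. All Obese libraries were thus above all Lean libraries, with means of 10.9 ± 1.18 and 6.32 ± 1.45 (SD, n = 3 each). The ratio was 1.72, or 0.78 on the log2 scale, and 0.63 to 0.97 with each library left out in turn. By exact permutation (two-sided) p was 0.1, which is as small as 3 libraries against 3 allow, and the adjusted p with limma was 0.769. Without Obese untreated replicate 2 ATG4A no longer met the criteria, which left 0 members called. After vitamin-C the treated libraries had 8.05, 12.1 and 9.83 normalized counts and the untreated libraries 13.0, 12.9 and 10.5, which overlapped (log2 ratio -0.28, exact permutation p = 0.2).

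The other proteases of this family did not stand with ATG4A. ATG4C had 2.37, 0.924 and 2.33 normalized counts across the Obese libraries, against 5.58, 2.98 and 4.11 across the Lean ones. Its groups did not overlap and its ratio was below 1, but the Obese mean of 1.88 was low, and the criteria were met only without Lean replicate 8. In the treated libraries ATG4C had 4.03, 9.39 and 1.667 normalized counts and in the untreated ones 2.61, 1.11 and 2.56, with a log2 ratio of 1.27 that fell to 0.44 without treated replicate 5. ATG4B and ATG4D overlapped between groups in both comparisons, with log2 ratios between -0.28 and 0.04.

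ATG7 is the E1-like enzyme that activates both ATG12 and the ATG8 family proteins, and so stands at the head of both conjugation systems. It spans chromosome 13 from 67301756 to 67699141 in Sscrofa11.1 and overlaps HRH1 and VGLL4. It had 228.6, 213.3 and 234.1 normalized counts across the Obese libraries, against 160.6, 179.7 and 172.5 across the Lean ones. These values lay at the 98.9th percentile of all genes by mean, and the gap between groups was larger than the spread within either. Means were 225.3 ± 10.8 and 171.0 ± 9.64 (SD, n = 3 each), a ratio of 1.32, which is below the fold limit of the criteria. The log2 ratio of 0.40 stayed within 0.36 to 0.44 with each library left out and was 0.31 after quantile normalization. The limma difference was 0.40, with a 95% interval of 0.04 to 0.75, the only member's interval without 0 in this comparison, and an adjusted p of 0.703. ATG7 kept an unadjusted limma p under 0.05 with other pseudocounts, no filter or size factors, and without Obese untreated replicate 2 or Lean replicate 8. It did not after quantile normalization or without the trend. Nor did it without Obese untreated replicate 1 or 3, or without Lean replicate 7 or 9. After vitamin-C, ATG7 had 243.4, 225.8 and 254.3 normalized counts, and the untreated libraries had 254.0, 241.3 and 257.6. These groups overlapped, with a log2 ratio of -0.06 and a limma interval of -0.44 to 0.33.

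ATG10, the E2-like enzyme that passes ATG12 on to ATG5, lies on chromosome 2 from 90436795 to 90665383, and no other annotated gene overlaps it. The Obese libraries had 5.43, 4.72 and 5.86 normalized counts and the Lean libraries 7.93, 5.95 and 10.3. The Obese values were below the Lean ones without overlap, by a narrow gap (means of 5.34 ± 0.575 and 8.04 ± 2.15, log2 ratio -0.59, -0.77 to -0.38 with each library left out). The criteria were met only without Lean replicate 8, its lowest Lean library, and the adjusted p with limma was 0.872. In the second table the treated libraries had 9.05, 10.2 and 8.01 normalized counts and the untreated ones 6.04, 5.38 and 6.45. Here every treated library was above every untreated one, with means of 9.09 ± 1.10 and 5.96 ± 0.536 (SD, n = 3 each) and a ratio of 1.53, or 0.61 on the log2 scale. With each library left out the log2 ratio was 0.52 to 0.69, the exact permutation p was 0.1, and limma gave an interval of -0.29 to 1.36 with an adjusted p of 1. The untreated libraries served in both comparisons of ATG10, so that its low value against Lean-MSCs and its high value after treatment share the same 3 measurements.

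The remaining conjugation genes were ATG3, ATG5, ATG12, ATG16L1 and ATG16L2. ATG16L2, a relative of the ATG16L1 scaffold, had 3.16, 2.85 and 1.27 normalized counts across the Obese libraries, against 0.020, 0.993 and 1.03 across the Lean ones. Both means were low, and the criteria were met only without Obese untreated replicate 3. After treatment ATG16L2 had 1.01, 4.66 and 4.52 normalized counts, against 3.49, 3.21 and 1.45 without it. ATG3, ATG5 and ATG16L1 overlapped in both comparisons, with log2 ratios of 0.03 to 0.50 in Obese-MSCs versus Lean-MSCs and of -0.16 to 0.10 after treatment. ATG12, the ubiquitin-like protein itself, had 3.30, 0.931 and 0.058 normalized counts across the Obese libraries, against 2.32, 2.98 and 4.10 across the Lean ones, and overlapped (exact permutation p = 0.3). After vitamin-C it had 6.03, 3.69 and 2.62 normalized counts in the treated and 3.57, 1.10 and 0.097 in the untreated libraries. These groups overlapped as well (exact permutation p = 0.2), and the log2 ratio of 1.37, the highest of the 38 members after treatment, rests on an untreated mean of 1.59, which is low.

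**Figure D3:**
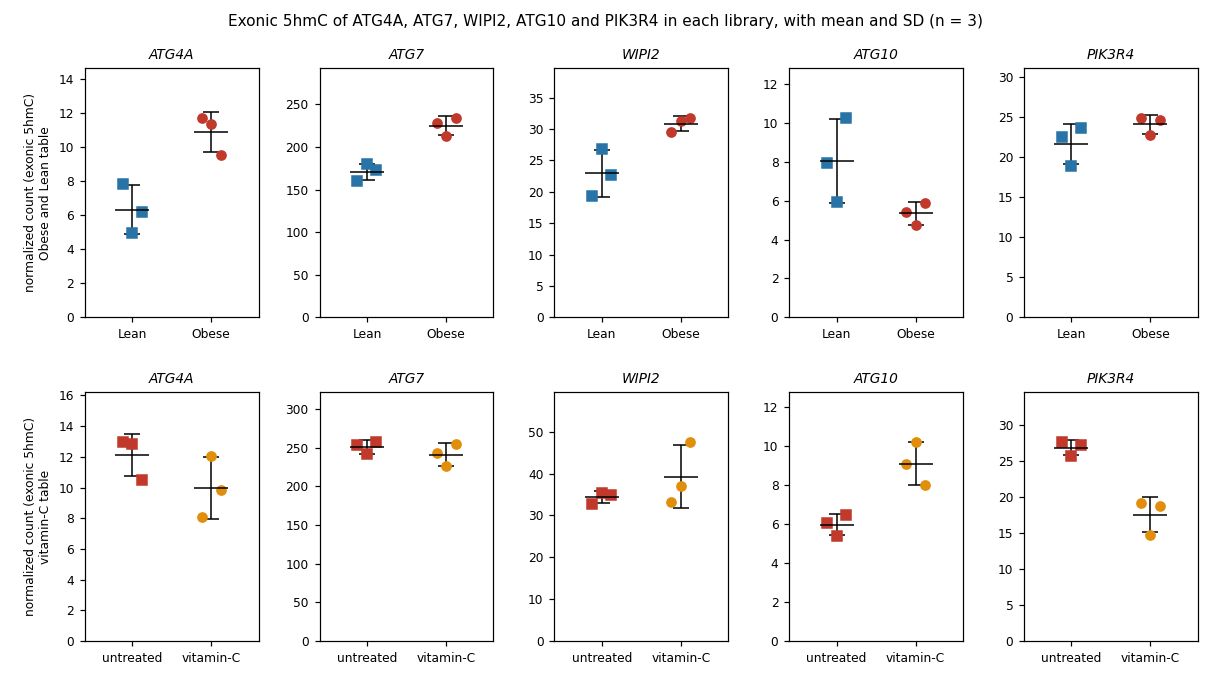
Normalized counts (vertical axes from 0) of ATG4A, ATG7, WIPI2, ATG10 and PIK3R4 in every library, with the mean and SD (n = 3) of each group. Upper panels give Lean-MSCs and Obese-MSCs, lower panels untreated and vitamin-C-treated Obese-MSCs. ATG4A, ATG7 and WIPI2 lay higher and ATG10 lower in Obese-MSCs, and after treatment ATG10 lay higher and PIK3R4 lower.

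Of the ULK1 complex, which holds the kinases ULK1 and ULK2 and the scaffolds ATG13, RB1CC1 and ATG101, no gene was called and all 5 overlapped in both comparisons. The median log2 ratio was -0.06 in Obese-MSCs versus Lean-MSCs and 0.05 after vitamin-C. ULK1 was the farthest from a ratio of 1 in the first comparison, with 20.9, 22.8 and 24.6 normalized counts across the Obese libraries, against 15.9, 11.9 and 21.5 across the Lean ones. Only the highest Lean library reached the Obese range (log2 ratio 0.47, exact permutation p = 0.2), and without that library, Lean replicate 9, ULK1 met the criteria. RB1CC1, which tethers the complex, was the farthest in the second comparison, with 140.8, 84.1 and 82.2 normalized counts in treated and 146.3, 121.2 and 79.7 in untreated libraries. Its log2 ratio was -0.18, and the means of 102.4 ± 33.3 and 115.7 ± 33.7 (SD, n = 3 each) differed by less than either SD.

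The class III PI3-kinase complex makes phosphatidylinositol 3-phosphate at the forming membrane. The 6 members grouped with it here are BECN1, the kinase PIK3C3, the regulatory subunit PIK3R4, ATG14, UVRAG and AMBRA1. The grouping is by role and does not mean that all 6 are subunits of a single complex. In Obese-MSCs versus Lean-MSCs 5 of the 6 ratios were above 1, with a median of 0.21 on the log2 scale and no call. AMBRA1 had 65.8, 46.4 and 45.0 normalized counts in the Obese and 35.2, 45.7 and 43.1 in the Lean libraries. One Obese library stood apart from the others, and the log2 ratio of 0.34 fell to 0.14 without it (exact permutation p = 0.2). PIK3R4 overlapped in this comparison, with 24.9, 22.7 and 24.7 against 22.6, 18.9 and 23.6 normalized counts and a log2 ratio of 0.15.

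After vitamin-C, PIK3R4 was the member of this group called low. It lies on chromosome 13 from 1730988 to 1815555 with no overlapping gene in the annotation. The treated libraries had 19.1, 14.8 and 18.8 normalized counts and the untreated libraries 27.7, 25.8 and 27.2. The untreated values were close together and all above the treated ones, with means of 17.6 ± 2.44 and 26.9 ± 0.989 (SD, n = 3 each). The ratio was 0.654, or -0.61 on the log2 scale, and -0.68 to -0.50 with each library left out. The exact permutation p was 0.1, and limma gave an interval of -1.21 to 0.02 with an adjusted p of 1. Without treated replicate 5, its lowest library, PIK3R4 no longer met the criteria, which left 1 member called. The other 5 genes of the group overlapped, with log2 ratios of -0.02 to 0.18.

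WIPI2, which binds phosphatidylinositol 3-phosphate and brings the ATG12 conjugate to the membrane, lies on chromosome 3 from 3800170 to 3830973. It had 29.5, 31.3 and 31.8 normalized counts across the Obese libraries, against 19.4, 26.8 and 22.6 across the Lean ones. All Obese libraries were higher, with means of 30.8 ± 1.22 and 22.9 ± 3.74 (SD, n = 3 each) and a ratio of 1.35, short of the fold limit. The log2 ratio was 0.43 and stayed within 0.32 to 0.56 with each library left out, and the adjusted p with limma was 0.82. Without Lean replicate 8, its highest Lean library, WIPI2 met the criteria. In the treated libraries it had 33.2, 37.0 and 47.6 normalized counts and in the untreated ones 32.8, 35.4 and 35.0, which overlapped (log2 ratio 0.19).

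Around WIPI2, the lipid supply genes gave no call. ATG9A and ATG9B, the membrane proteins of the seed vesicles, had log2 ratios of -0.05 and 0.02 in Obese-MSCs versus Lean-MSCs and of 0.04 and 0.17 after treatment. ATG2A, a lipid transfer protein, had the ratio farthest from 1 of this group after vitamin-C, with 4.03, 2.69 and 11.9 normalized counts in treated and 4.30, 7.43 and 1.57 in untreated libraries. That log2 ratio of 0.48 turned to -0.40 without treated replicate 6, its highest library, and its limma interval was -0.92 to 1.62. WIPI1, ATG2B and WDR45 overlapped in both comparisons, with log2 ratios between -0.34 and 0.37.

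The ATG8 family is attached to the membrane and recruits cargo. MAP1LC3B, whose product LC3B is the usual marker of autophagosomes, had 34.5, 16.9 and 37.3 normalized counts across the Obese libraries, against 25.8, 30.8 and 6.26 across the Lean ones. Both groups had 1 low library, and the log2 ratio of 0.50 had an exact permutation p of 0.5. GABARAPL2 had 9.05, 5.55 and 1.66 normalized counts in treated libraries and 11.3, 9.64 and 5.50 in untreated ones. This was the lowest log2 ratio of the members after vitamin-C, -0.70, and its groups overlapped (exact permutation p = 0.3, limma interval -1.86 to 0.34). GABARAPL1 stood next to it, with a log2 ratio of -0.58, and MAP1LC3B was at -0.01. GABARAP was at 0.60, but with means of only 5.01 in treated and 3.3 in untreated libraries. Its groups overlapped (exact permutation p = 0.5), and it was below the filter for limma. Ratios were thus below 1 in 3 of the 4 genes and above 1 in 1, and all 4 overlapped. MAP1LC3A was listed at 0 in all 3 untreated libraries and at 0.002, 1.86 and 2.74 normalized counts in the treated ones, and both groups were low.

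Of the cargo receptors, SQSTM1, NBR1, OPTN and CALCOCO2, no gene was called. CALCOCO2, a receptor for bacteria and mitochondria, had 22.3, 22.7 and 33.8 normalized counts across the Obese libraries, against 22.5, 17.9 and 15.4 across the Lean ones. The ratio of 1.41 rested on 1 high Obese library and fell to 0.28 on the log2 scale without it (exact permutation p = 0.2). NBR1 had 54.3, 41.6 and 50.1 normalized counts in the treated and 48.6, 31.2 and 38.9 in the untreated libraries, with a log2 ratio of 0.30 and overlap of the groups. SQSTM1, the p62 receptor, had log2 ratios of 0.00 and 0.11 and OPTN of -0.03 and 0.22. TFEB, the transcription factor that drives lysosome and autophagy genes, had at most 2.74 normalized counts in any library and was too low to compare.

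**Figure D4:**
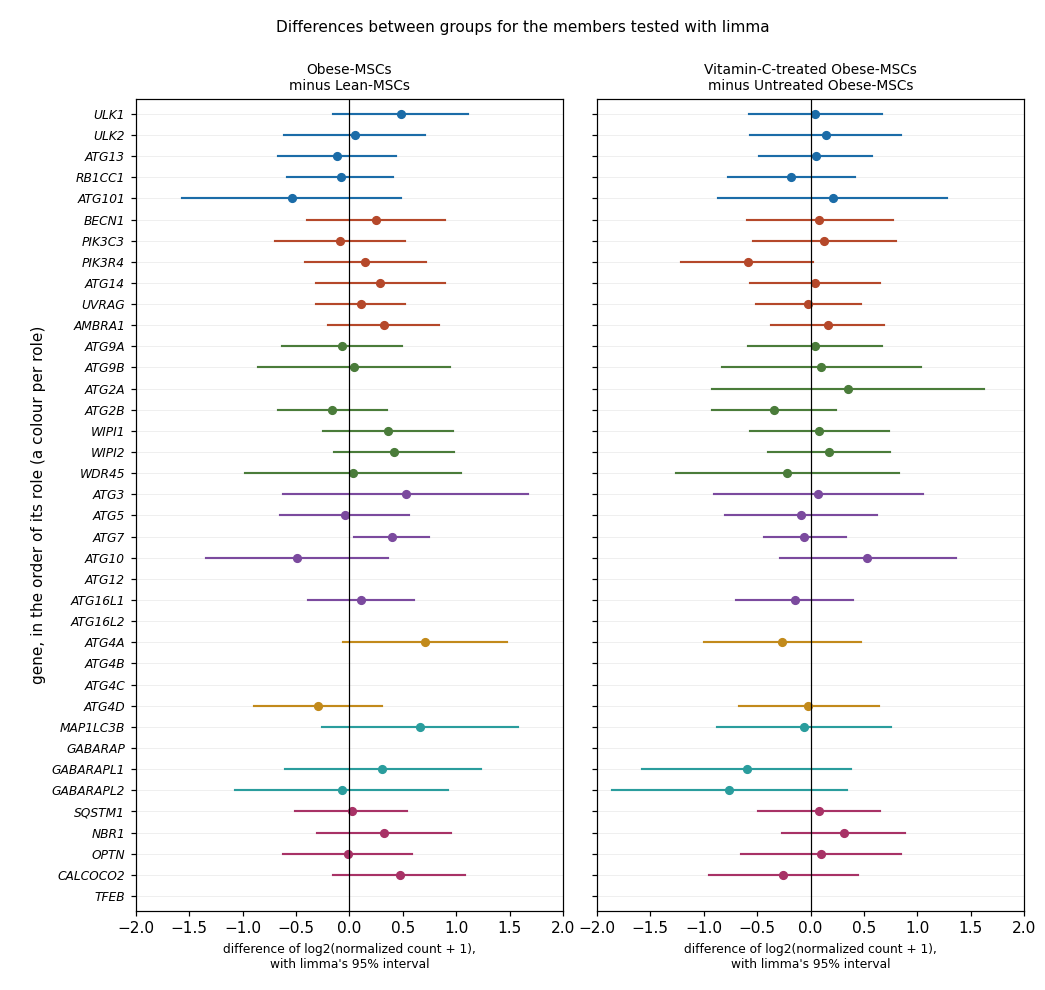
Difference between groups in log2(normalized count + 1), with limma's 95% interval, for the 31 members tested in Obese-MSCs versus Lean-MSCs (left) and the 32 tested in treated versus untreated Obese-MSCs (right), coloured by role. Genes without a mark were below the filter on the mean. The interval of ATG7 on the left is the only one that does not include 0.

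One Obese library carried more of the members' signal than the others. The 38 genes summed to 1464 normalized counts in Obese untreated replicate 1, which was 0.280% of its total, and to between 0.226% and 0.244% in the other 5 libraries of that table. Of 35 members with a mean above 3, 14 had their highest value in this library, where 18% of all genes with such a mean did. Without it, the median log2 ratio over the 38 members was 0.037, against 0.103 with all libraries. In the second table the same library held 0.280% and treated replicate 4 held 0.265%, with 0.235% to 0.250% in the other 4. The share of this library in the single results above was given by leaving it out, and ATG4A, ATG7, WIPI2, ATG10 and PIK3R4 kept their direction.

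Levels differed more between members than between groups. In Lean-MSCs the highest were UVRAG with 195.3, ATG7 with 171.0 and RB1CC1 with 108.1 normalized counts, and the lowest was ATG16L2 with 0.680. Exon lengths were not used here, and levels were therefore set per 10 kb of gene span, introns included. On that scale ATG4D with 37.4, ATG9A with 35.3 and SQSTM1 with 34.3 normalized counts per 10 kb stood highest in Lean-MSCs. ATG7 was at 4.30, ATG4A at 0.723, ATG10 at 0.352, ATG4C at 0.321 and TFEB, the lowest, at 0.202. Across the 38 members the level in Lean-MSCs and the span had a Spearman rho of 0.43, and across all 18933 genes 0.53. These are descriptions across genes, which share the same 3 libraries. Among the 38 members, 12 overlap another annotated gene, whose exons could not be told apart from theirs where they coincide, and 2, ATG4A and WDR45, are on the X chromosome.

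**Figure D5:**
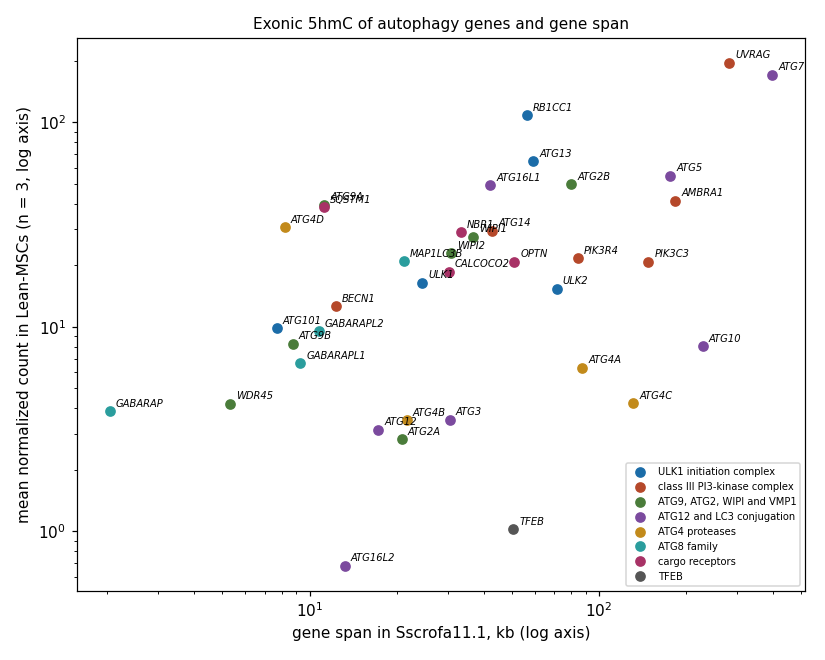
Mean normalized count in Lean-MSCs (n = 3, vertical log axis) against gene span in Sscrofa11.1 (kb, horizontal log axis) for the 38 members, coloured by role. Short genes such as ATG4D, ATG9A and SQSTM1 lie high for their span, and ATG10, ATG4C and TFEB lie low.

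Genes further along the route were described for context. Of 16 genes for fusion with the lysosome, 0 were called in Obese-MSCs versus Lean-MSCs, where 2.07% of all genes were called high and 2.43% low. After vitamin-C 1 of the 16 was called high, where 1.11% of all genes were, and this was VPS16, a core subunit of the tethering complexes HOPS and CORVET. VPS16 had 14.1, 12.0 and 9.77 normalized counts in the treated and 6.02, 6.44 and 6.48 in the untreated libraries, a log2 ratio of 0.92 with an adjusted p of 1 with limma. Every treated library was above every untreated one, and the same held for VPS11 and VPS39, which were not called, so that 3 of the 16 were higher without overlap, where 3.24% of all genes were. Of 19 genes for lysosomal degradation, HEXA, a subunit of the enzyme that breaks down gangliosides, was the 1 gene called low in Obese-MSCs, where 2.43% of all genes were. HEXA had 6.27, 6.66 and 3.67 normalized counts in the Obese and 9.14, 10.9 and 13.3 in the Lean libraries, a log2 ratio of -1.01 with an adjusted p of 0.703 with limma. LAMP2, NPC1 and MCOLN1 were also lower in every Obese library than in every Lean library, without meeting the criteria. Over both lists this made 1 of 16 and 3 of 19 genes lower without overlap, where 6.06% of all genes were. None of the 19 was called after vitamin-C, and of 27 regulators and other receptors 0 were called in either comparison, against the shares of all genes given above and 0.806% called low after vitamin-C. The median log2 ratios of the 3 lists were -0.06, 0.02 and 0.19 in Obese-MSCs versus Lean-MSCs and 0.15, 0.12 and 0.07 after treatment.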

How the data were processed

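The authors aligned paired hMeDIP-seq reads with Bowtie 2 (2.3.3.1) to the porcine genome susScr 11.1, removed duplicates with PICARD (1.67), ran htseq-count (0.9.1) to count exonic reads per gene, and passed these to edgeR (3.28.1). Per gene and library, the deposited files give normalized counts, used as a signal. They are fractional, and low values fall on steps that were clear in only some libraries. Whole reads were therefore not recovered in all libraries, and no count test was run. In Lean replicates 8 and 9 and treated replicate 4, 99.93% to 100% of values between 0.2 and 20 lay on steps. These steps were 0.99, 1.027 and 1.002 normalized counts. If a step is 1 read, members with few normalized counts, such as ATG4A and ATG10, rest on few reads there. In the second of the 2 tables, 25 gene names had been turned into dates, and 645 values of numerical residue were set to 0. All columns were used, and groups came from the submitters' labels.

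The study's criteria were applied to every gene. On log2(value + 1), limma (3.58.1, under R 4.3.3) used a trend over the mean and tested the upper 80% of genes by mean. Benjamini-Hochberg adjustment was at 0.05. The added 1 makes differences of low genes smaller. For single members, 20 arrangements of the libraries gave an exact permutation test (two-sided). Other steps ran in Python 3.11.15 (scipy 1.17.1, pandas 2.3.3, numpy 2.4.6, matplotlib 3.10.9). The fits were tested on simulated data, with changes larger than those of any member with both group means above 3. How well they find differences as small as those members' was not tested. Positions are from RefSeq, Sscrofa11.1. Members and gene lists were chosen with earlier results of these data known. Values in every library are given for members that were called or did not overlap, and for the member whose log2 ratio was farthest from 0 in each role and comparison, among those with both group means above 3. ATG12 is given beyond this rule and was chosen after its values were seen. Other thresholds, pseudocounts, filters, scalings and each library left out were tried. Peaks and human libraries were not analysed here.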

Additional observations from a re-analysis of the deposited data

How the results depend on the processing

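The groups share no replicate numbers in the labels, so the fits in the report are unpaired. In Obese-MSCs versus Lean-MSCs, the count of 1 member called became 0 with a p limit of 0.01 and 3 without fold limits, which added WIPI2 and ATG7. With each library left out it was 0 to 4. It was 0 without Obese untreated replicate 2, 4 without Lean replicate 8 (WIPI2, ATG10, ATG4A and ATG4C), 3 without Obese untreated replicate 1 (ATG12, ATG4A and GABARAP), 2 without Obese untreated replicate 3 (with ATG16L2) and 2 without Lean replicate 9 (with ULK1). After vitamin-C the count of 2 became 1, PIK3R4, with a p limit of 0.01, and was 1 to 3 with each library left out, with OPTN added without treated replicate 6. The median log2 ratio over the 38 members after vitamin-C was 0.061 and ranged from -0.029 to 0.161 with each library left out. It was below 0 without untreated replicate 3 and, at -0.009, without treated replicate 6, and it was 0.161 without untreated replicate 1. The causes were not tested. In Obese-MSCs versus Lean-MSCs this median was 0.103 and 0.037 to 0.155. With limma, 0 members passed the adjusted p of 0.05 under any alternative run, including fits that blocked on any of the 6 ways to match a treated to an untreated library, which were chosen after seeing the data. At an unadjusted p of 0.05 these gave 1 member, PIK3R4, for the matching of treated 4, 5 and 6 with untreated 1, 2 and 3, and 0 for the others. Other alternatives also brought members besides ATG7 to this limit. In Obese-MSCs versus Lean-MSCs they were ATG4A without the trend, and MAP1LC3B without Obese untreated replicate 2 or without Lean replicate 8. After vitamin-C they were PIK3R4 without the trend and GABARAPL2 without treated replicate 4. No called value changed sign. Rescaling by size factors or quantiles moved the median of all genes by less than 0.1 on the log2 scale. The depth in reads was not known, which limits what can be said of members at or under 3 normalized counts. The same holds for others with few normalized counts, such as ATG4A and ATG10.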

Other observations

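The labels give treated and untreated libraries different replicate numbers and do not say which came from the same animal. Deviations of log2 values from the group mean, over 15194 genes, had a correlation of 0.26 between treated replicate 4 and untreated replicate 1, of 0.34 between treated 5 and untreated 2, and of 0.15 between treated 6 and untreated 3. The other pairs of a treated and an untreated library had correlations of -0.22 to -0.03. These are descriptions across genes within the same 6 libraries. Centring each group on its own mean makes a library's values with the other group offset one another, so the negative ones are not a separate contrast.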
